A study of Mus musculus with 6 samples.

Results

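Described here are 10 transcription factors of the endocrine lineage, Neurod1, Isl1, Pax4, Pax6, Nkx2-2, Insm1, St18, Myt1, Mnx1 and Lmx1a, measured in sorted intestinal cells. They were taken by name, through every probe set annotated with that gene symbol alone, and all 10 were found among the 18193 genes measured. They have 19 probe sets, of which Pax6 has 5, Isl1, Neurod1, Insm1, Myt1 and St18 have 2 each and the other 4 genes have 1. For each gene the probe set that was brightest on average over the 6 arrays was used, and the others are described separately. All cells came from the intestine of adult Swiss Webster mice carrying a CCK-EGFP transgene, in which enhanced green fluorescent protein (EGFP) marks cells that express the hormone cholecystokinin (Cck). After enzymatic dissociation, fluorescence-activated sorting gave 3 samples of CCK-EGFP cells and 3 samples of non-EGFP (GFP negative) intestinal cells, taken in equal number, and each sample was hybridised to 1 array. The labels give no mice without the transgene, no region of the intestine and no number of mice. Since they do not say whether samples of a group came from separate animals, a p-value here reflects variation among samples that could be technical only.

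Enteroendocrine cells are the hormone-secreting cells of the gut epithelium. They arise in the crypts from progenitors that pass through a short phase of expressing the basic helix-loop-helix factor Neurog3, which switches on factors such as Neurod1, Insm1, Pax4 and Nkx2-2. Factors that stay on in the differentiated cell, such as Isl1 and Pax6, take part in setting which peptide hormones it makes. The same genes act in the formation of pancreatic islets, and several also act in neurons.

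Values are log2 intensities from RMA (robust multi-array average), so that a difference of 1 is a doubling, and levels are compared between groups for a gene and not between genes. A background level of 4.60 was taken from olfactory and vomeronasal receptor genes, as the 95th percentile of their means. Of the 10 factors, 9 were higher in CCK-EGFP cells, 0 were lower and 1, Pax4, did not pass the test (limma, Benjamini-Hochberg adjusted p under 0.05 over all genes). Over all genes 24.1% passed this rule, 14.0% as higher and 10.2% as lower. On the log2 scale 6 of the factors were higher by at least 4, a size that 2.08% of all genes reached with a call. Their median log2 difference was 4.47, against -0.17 over all genes tested. The lowest CCK-EGFP array lay above the highest non-EGFP array for 10 of 10 factors, as it did for 21.8% of all genes. In pooled cells a smaller number of cells expressing a gene and less RNA per cell cannot be told apart.

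**Figure D1:**
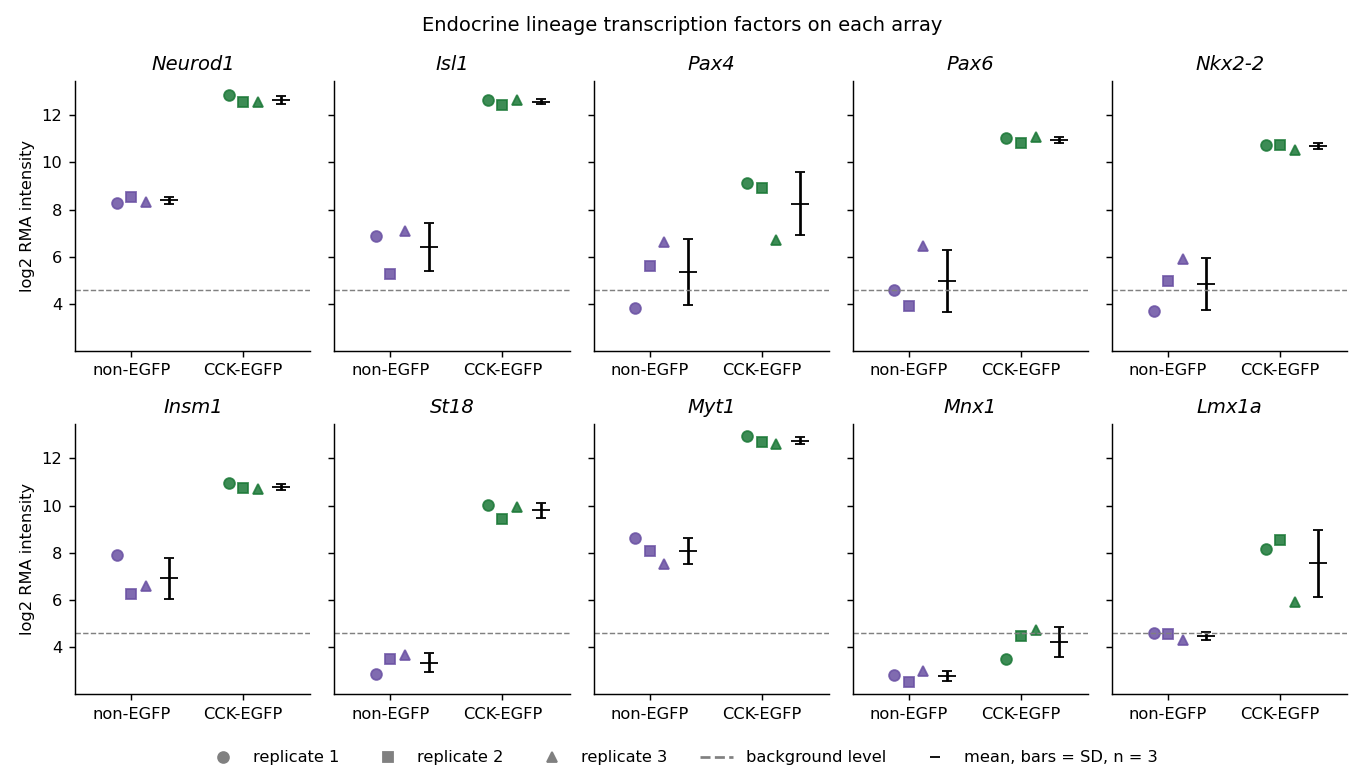
Log2 RMA intensity (vertical axis) of the 10 factors on each array, by group (horizontal axis), with replicates 1, 2 and 3 as circles, squares and triangles, the mean with its SD (n = 3) in black and the background level of 4.60 as a dashed line. CCK-EGFP values of Neurod1, Isl1 and Myt1 lie between 12.45 and 12.93, those of Mnx1 lie near or below the background level, and CCK-EGFP replicate 3 stands low for Pax4 (6.71) and Lmx1a (5.94).

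All 8 enteroendocrine markers fixed for the check of the sort (Cck, Chga, Chgb, Scg2, Scgn, Pcsk1, Cpe and Syp) were higher in the CCK-EGFP cells. Their mean level was 12.71 to 13.02 on the CCK-EGFP arrays against 7.89 to 8.13 on the non-EGFP arrays. Of 6 tuft cell markers measured, 3 were also higher (Dclk1 by at least 4.14, Avil by 2.47 and Alox5 by 2.07), 0 were lower and 3 did not pass. Over all genes 14.0% were higher and 10.2% lower. The tuft list had a mean level of 7.31 to 8.43 against 5.86 to 6.20, and the Alox5 call ended on omission of replicate 1 or 2 of the CCK-EGFP cells or 2 or 3 of the non-EGFP cells (adjusted p = 0.0768 to 0.126). Enterocyte markers remained abundant in the sorted cells, at a mean of 12.35 to 13.19 against 13.52 to 13.59. Of 11 measured, 0 were higher, 3 lower (Mttp, Slc5a1 and Treh) and 8 did not pass. Of 7 goblet cell markers, 1 was higher (Agr2 by 1.20), 2 lower (Muc2 and Spdef) and 4 did not pass. Each of these lower calls ended without CCK-EGFP replicate 1 or without replicate 2. CCK-EGFP replicate 3 had the highest mean of its group for enterocyte (13.19), Paneth (10.17), T and NK lymphocyte (11.75) and B and plasma cell markers (9.06). Non-EGFP replicate 3 was also the highest of its group for Paneth (11.04), T and NK lymphocyte (11.64) and B and plasma cell markers (7.99). The 3' minus 5' difference of the Pcx control probe sets, a measure of RNA quality, was 2.36 to 3.07 in CCK-EGFP cells against 4.26 to 4.38 in non-EGFP cells, and Pcx as a gene differed by -2.68 (adjusted p = 0.0013, limma). In 3 other such controls, of the actin, Gapdh and transferrin receptor genes, the arrays of both groups overlapped. The part of these differences in the results below was not tested.

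The start regions of some of the factors with large differences are shown because these genes were high together in the sorted cells. RefSeq promoter windows (GRCm38.p6, 250 bases before to 50 bases after a transcript start) were found for 7 of the 10 factors, in 10 windows. None was found for Pax4, Insm1 or St18. Those of the 4 homeodomain, paired box and helix-loop-helix genes that were higher by at least 4 are printed. The windows of the zinc finger gene Myt1, also higher by at least 4, are not. Pax6 has 2 start regions in the table. Capitals mark each match to the E-box CANNTG, the core that basic helix-loop-helix factors such as Neurod1 and Neurog3 bind. It reads as CANNTG on either strand.
Neurod1 (chr2:79456587-79456886, minus strand): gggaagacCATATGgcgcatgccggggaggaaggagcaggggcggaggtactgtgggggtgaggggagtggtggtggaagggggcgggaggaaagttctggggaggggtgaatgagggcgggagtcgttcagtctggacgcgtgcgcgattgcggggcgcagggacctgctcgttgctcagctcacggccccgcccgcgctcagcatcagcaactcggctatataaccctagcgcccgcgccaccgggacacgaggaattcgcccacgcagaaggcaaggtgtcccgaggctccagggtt
Isl1 (chr13:116309639-116309938, minus strand): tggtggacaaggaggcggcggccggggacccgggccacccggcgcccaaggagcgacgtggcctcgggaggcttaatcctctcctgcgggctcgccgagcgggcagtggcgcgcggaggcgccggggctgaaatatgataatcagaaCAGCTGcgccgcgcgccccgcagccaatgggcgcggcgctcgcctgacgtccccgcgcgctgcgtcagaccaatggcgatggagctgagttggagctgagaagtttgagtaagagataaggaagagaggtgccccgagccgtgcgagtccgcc
Nkx2-2 (chr2:147186353-147186652, minus strand): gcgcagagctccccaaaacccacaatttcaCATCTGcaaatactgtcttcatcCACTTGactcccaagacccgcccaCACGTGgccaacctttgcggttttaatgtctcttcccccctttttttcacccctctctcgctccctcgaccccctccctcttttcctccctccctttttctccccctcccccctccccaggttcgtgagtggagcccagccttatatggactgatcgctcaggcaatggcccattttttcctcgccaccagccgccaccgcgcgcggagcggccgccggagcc
Pax6, upstream start (chr2:105668646-105668945, plus strand): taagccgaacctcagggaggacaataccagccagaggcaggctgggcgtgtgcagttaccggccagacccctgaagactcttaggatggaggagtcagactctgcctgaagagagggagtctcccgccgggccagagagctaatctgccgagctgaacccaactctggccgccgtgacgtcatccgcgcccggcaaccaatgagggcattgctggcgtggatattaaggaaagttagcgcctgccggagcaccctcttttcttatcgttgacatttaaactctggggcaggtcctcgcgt
Pax6, downstream start (chr2:105682213-105682512, plus strand): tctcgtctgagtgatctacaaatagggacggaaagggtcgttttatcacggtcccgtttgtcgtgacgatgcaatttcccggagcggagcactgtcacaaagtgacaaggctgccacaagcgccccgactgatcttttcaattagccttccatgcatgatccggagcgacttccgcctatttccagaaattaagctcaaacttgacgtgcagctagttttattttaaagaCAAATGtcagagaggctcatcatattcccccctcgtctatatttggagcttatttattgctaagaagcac

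The windows of Neurod1 and Isl1 hold 1 E-box each, that of Nkx2-2 holds 3, the upstream window of Pax6 holds 0 and the downstream window holds 1. Across the 10 windows of the factors, 8 held CANNTG, as did 72.3% of the 32851 windows in the table. The form CAGCTG was in 2 of 10 (16.3% of all windows), in Isl1 and Mnx1, and CAGATG, searched on both strands, in 1 of 10 (17.2%), in Nkx2-2. Both forms are also counted under CANNTG. The homeodomain core TAATTA was in 0 of 10 windows, against 5.29% of all, and CCAAT, on both strands, in 6 of 10 against 37.4%. The GC content ran from 39.3% for a Myt1 window to 69.0% for that of Isl1, where the median of all windows was 52.7%. These are matches of letters and not sites of binding, and the arrays do not bear on which of them is used.

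Neurod1, a basic helix-loop-helix activator that follows Neurog3 and is needed for secretin and cholecystokinin cells, read 12.85, 12.57 and 12.55 on the CCK-EGFP arrays against 8.30, 8.55 and 8.33 on the non-EGFP arrays. Its arrays agreed closely within each group, and the groups lay far apart. The log2 difference was 4.26 (SE 0.19, limma adjusted p = 0.000104), or 19.2-fold. Non-EGFP cells were well above the background level for this factor on every array. The other Neurod1 probe set read 11.61 ± 0.44 against 5.73 ± 0.40 (SD, n = 3) and gave a larger difference of 5.88 (SE 0.32, adjusted p = 0.000291 over all probe sets).

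Of the zinc finger factors, Insm1, a repressor needed for endocrine differentiation in gut and pancreas, read 10.95, 10.76 and 10.69 in CCK-EGFP cells against 7.90, 6.26 and 6.60 in non-EGFP cells. Non-EGFP replicate 1 stood above the other non-EGFP arrays, and the groups did not overlap. The log2 difference was 3.88 (SE 0.43, limma adjusted p = 0.00206), a 14.7-fold higher level. Its other probe set showed a larger difference of 5.83 (SE 0.30, adjusted p = 0.000249), with non-EGFP values between 5.27 and 5.84.

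Myt1, first described as a myelin gene factor and also active in endocrine progenitors, read 12.93, 12.70 and 12.63 in CCK-EGFP cells against 8.64, 8.07 and 7.51. Every sorted sample was far above every non-EGFP sample, by a log2 difference of 4.68 on average (SE 0.31, limma adjusted p = 0.000362), or 25.7-fold. St18, a relative of Myt1 with the same type of zinc finger, read 10.01, 9.44 and 9.95 in CCK-EGFP cells against 2.89, 3.49 and 3.67 in non-EGFP cells. All non-EGFP arrays fell short of the background level for St18, so that it was at least 36.8-fold higher against that level (fitted log2 difference 6.45, SE 0.28, adjusted p = 0.000104). This was the largest fitted difference of the 10 factors, but against the background level it is bounded only by 5.20, so that its place in their order is not settled.

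Isl1, a LIM-homeodomain factor of mature endocrine cells and neurons, read 12.63, 12.45 and 12.63 on the CCK-EGFP arrays against 6.87, 5.27 and 7.12 on the non-EGFP arrays. The sorted samples lay close together, while non-EGFP replicate 2 fell below the other non-EGFP arrays. The log2 difference was 6.15 (SE 0.48, limma adjusted p = 0.000594), or 71.1-fold, and the second probe set gave 6.56 (SE 0.47). Lmx1a, a LIM-homeodomain factor known for its part in serotonin-producing enterochromaffin cells, read 8.16, 8.56 and 5.94 against 4.61, 4.57 and 4.29. CCK-EGFP replicate 3 stood low, more than 2 units below the other sorted samples, yet above every non-EGFP array. Lmx1a was higher by 3.06 (SE 0.66, limma adjusted p = 0.0209), or at least 7.75-fold against the background level. Its call ended when any other array was omitted (adjusted p = 0.0514 to 0.0726), whereas without CCK-EGFP replicate 3 the difference was 3.87 (adjusted p = 0.000964).

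Nkx2-2, a homeodomain factor that acts in the choice among gut hormones, read 10.76, 10.75 and 10.54 in CCK-EGFP cells against 3.69, 4.97 and 5.90 in non-EGFP cells. The sorted samples were tight, and non-EGFP replicate 1 lay below the background level while the other non-EGFP arrays lay above it. The log2 difference was 5.83 (SE 0.53, limma adjusted p = 0.00103). No fold is given, because the non-EGFP mean (4.85 ± 1.11, SD, n = 3) was close to the background level. Mnx1, a homeodomain factor of motor neurons and of pancreatic beta cells, read 3.52, 4.48 and 4.73 against 2.82, 2.55 and 3.0. Both group means were below the background level and 1 array, CCK-EGFP replicate 3, exceeded it. Mnx1 passed the test with a difference of 1.45 (SE 0.35, limma adjusted p = 0.0283), and no fold is given at this level. Omitting replicate 2 or 3 of the CCK-EGFP cells, or replicate 1 or 2 of the non-EGFP cells, ended the call (adjusted p = 0.067 to 0.103).

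Of the paired box factors, Pax6, an activator of the glucagon and Gip genes, read 11.02, 10.82 and 11.06 in CCK-EGFP cells against 4.59, 3.92 and 6.44 in non-EGFP cells. Its sorted samples were uniform, and only non-EGFP replicate 3 was above the background level in that group. The log2 difference was 5.98 (SE 0.61, limma adjusted p = 0.00156). No fold is given, because replicate 3 alone put the non-EGFP mean (4.98 ± 1.31, SD, n = 3) above the background level. Pax4, a repressor that acts in islet progenitors and early in several gut endocrine cell types, read 9.13, 8.93 and 6.71 against 3.84, 5.61 and 6.63. The groups nearly touched, since CCK-EGFP replicate 3 lay 0.09 above non-EGFP replicate 3. Pax4 had a difference of 2.90 (SE 0.89) and did not pass the test (limma adjusted p = 0.0589). It passed without CCK-EGFP replicate 3 (3.67, adjusted p = 0.03) or without non-EGFP replicate 3 (3.53, adjusted p = 0.0451). Pax4 and Lmx1a were thus both low on CCK-EGFP replicate 3, the sorted sample with the highest levels of Paneth and lymphocyte markers, while Isl1 (12.63), Pax6 (11.06) and St18 (9.95) were not. Non-EGFP replicate 3 was likewise the highest of its group for Paneth and lymphocyte markers. Whether the other cells on CCK-EGFP replicate 3 bear on the low Pax4 and Lmx1a values was not tested. Without that array 9 factors were called, with Pax4 added and Mnx1 lost.

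Of the 19 probe sets, 14 were higher in CCK-EGFP cells and 5 did not pass, where 16.1% of all probe sets passed the same rule, 8.84% as higher and 7.29% as lower. For 7 of the 10 genes every probe set was higher, though Nkx2-2, Mnx1 and Lmx1a among them have only 1. Pax4 has 1 probe set, and Pax6 and Myt1 had probe sets on both sides of the threshold. The second Myt1 probe set read 4.57, 5.39 and 4.49 against 4.20, 3.54 and 3.11, near the background level, with a difference of 1.20 (SE 0.38, limma adjusted p = 0.0742). The 5 probe sets of Pax6 ran from -0.25 to 5.98. A second Pax6 probe set was higher by 3.16 (SE 0.35, adjusted p = 0.00301). Those with differences of 1.81 (adjusted p = 0.0562), 0.94 (0.124) and -0.25 (0.538) did not pass, and the lowest of them was below the background level in both groups (4.14 ± 0.44 and 4.39 ± 0.23, SD, n = 3). The probe set at 1.81 passed with a replicate block (adjusted p = 0.0343) or without non-EGFP replicate 1 (0.0208). Averaged over all its probe sets, the difference was 2.33 for Pax6, 2.94 for Myt1, 4.86 for Insm1, 5.07 for Neurod1 and 5.50 for St18, and each was called. Which transcripts each probe set detects was not analysed here.

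**Figure D2:**
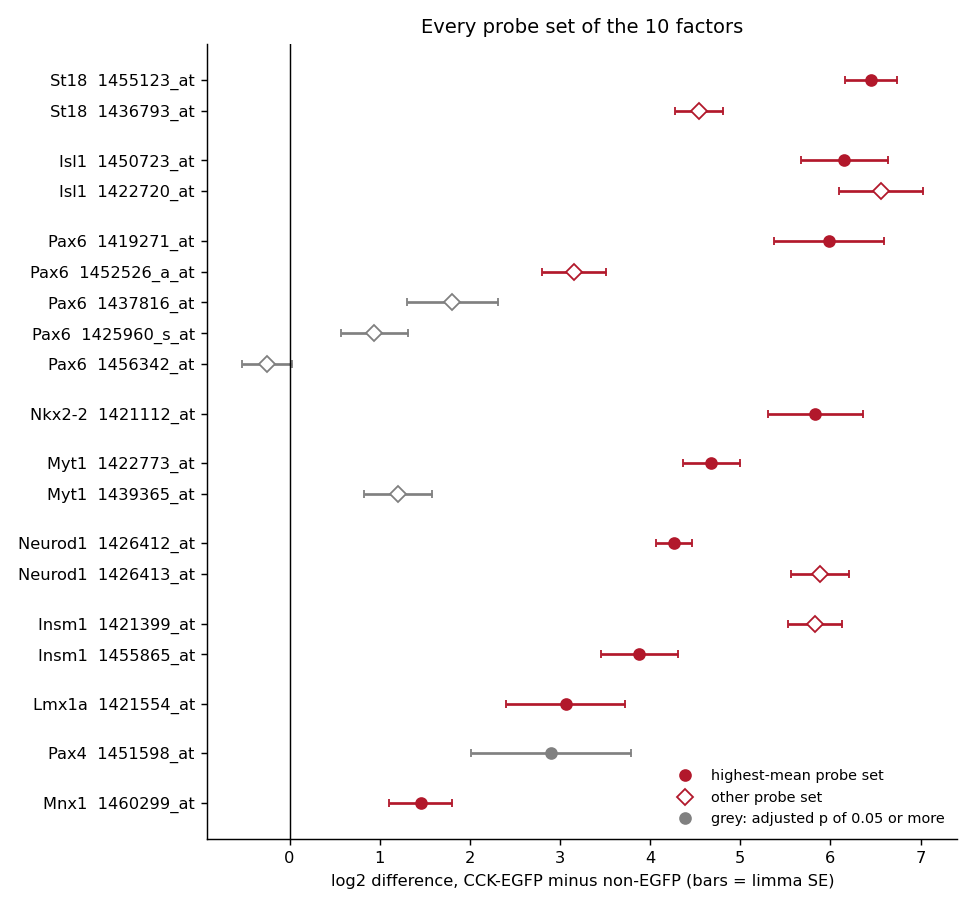
Log2 difference between CCK-EGFP and non-EGFP cells (horizontal axis) with its limma SE for each of the 19 probe sets, ordered by gene, with filled circles for the probe set of highest mean, open diamonds for the others and grey for those that did not pass. The probe sets of Isl1 lie together at 6.15 and 6.56, whereas those of Pax6 spread from -0.25 to 5.98 and those of Myt1 stand at 1.20 and 4.68.

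Within the sorted cells the factors differed in how evenly they were measured. SDs over the 3 CCK-EGFP arrays were 0.11 to 0.31 for 7 factors, with 0.64 for Mnx1, 1.34 for Pax4 and 1.42 for Lmx1a. The median SD of the 10 factors was 0.16 in CCK-EGFP cells, where that of all genes was 0.24, and 0.72 in non-EGFP cells, where that of all genes was 0.35. The largest non-EGFP SDs were those of Pax4 (1.41), Pax6 (1.31), Nkx2-2 (1.11), Isl1 (1.00) and Insm1 (0.87). Non-EGFP replicate 3 held the highest value of its group for 6 of the 10 factors and had their highest mean in that group, 5.95 against 5.41 and 5.33. Its mean of the enteroendocrine markers was also the highest of the group, at 8.13 against 7.89 and 7.91. In CCK-EGFP cells replicate 1 held the highest value for 7 factors and replicate 3 the lowest for 6.

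The genes with the profile most like the mean of the 10 factors were named by the root mean square distance over the 6 arrays, after each gene was centred on its own mean. The nearest outside the 10 were Fam229b (0.15), Fry (0.18), Cck (0.21), Alb (0.21) and Eid1 (0.22). They were picked for nearness to a profile that is high on the CCK-EGFP arrays. Their differences therefore follow from that choice and are given as description only. Cck, the gene on which the cells were sorted, read 13.52, 12.90 and 13.06 against 8.65, 8.35 and 8.89, a difference of 4.53 (SE 0.25, limma adjusted p = 0.000192). Fry was higher by 4.38, Eid1 by 4.63 and Alb, the albumin gene, by 4.17, while Fam229b had a non-EGFP mean of 2.96, under the background level, and was higher by at least 2.62 against it. The mean of the 4 Fry probe sets gave a smaller difference of 1.04 (adjusted p = 0.0119). Of the factors, Neurod1 lay nearest to their mean profile (0.29) and Mnx1 farthest (1.59). Outside the 10, 15 genes lay nearer to it than Neurod1, 156 nearer than Myt1 and 290 nearer than Insm1. For Nkx2-2, Pax6, Isl1, Lmx1a, St18 and Pax4 this number was 533 to 1111, and for Mnx1 2091. Most of the factors are thus not close to their own mean profile.

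Other regulators of the secretory and endocrine lineage moved in both directions. Of 22 listed, 15 were measured, and 7 were higher, 3 lower and 5 did not pass, and the median log2 difference was 0.48. Over all genes 14.0% were higher and 10.2% lower. Without CCK-EGFP replicate 1, or without replicate 2, 6 of the list were higher and 1 lower. Hhex, 1 of the 7, lost its call when any array was omitted (limma adjusted p = 0.0518 to 0.113). Runx1t1, a corepressor, was at least 62.2-fold higher against the background level (10.56 ± 0.10 against 4.41 ± 0.35, SD, n = 3, limma adjusted p = 0.000104). Prox1, a homeodomain factor, was higher by 5.24, Sox4, an HMG-box factor of endocrine progenitors, by 4.45 and the pioneer factor Foxa1 by 3.25 (adjusted p at most 0.0031). Averaged over a gene's probe sets, the fitted differences were 3.75 for Runx1t1, 3.52 for Prox1 and 2.86 for Sox4, all still called. The 3 lower genes were Atoh1, Hes1 and Neurog3, of which Atoh1 and Hes1 were singled out after their values were seen. Atoh1, which commits crypt cells to the secretory lineage, read 5.07, 6.53 and 6.50 against 8.17, 8.15 and 8.03 (log2 difference -2.08, SE 0.41, adjusted p = 0.0157). Hes1, a Notch target that represses Atoh1 and Neurog3, differed by -1.36 (SE 0.29, adjusted p = 0.0198), and its call ended without CCK-EGFP replicate 1 or 2 (adjusted p = 0.0734 and 0.0805).

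Neurog3 read 3.89, 3.80 and 3.58 in CCK-EGFP cells against 4.64, 4.52 and 4.31 in non-EGFP cells. Its groups did not overlap, but both means were below the background level. The difference was -0.73 (SE 0.19, limma adjusted p = 0.0379), and a replicate block gave adjusted p = 0.0521. Its call ended when any array but non-EGFP replicate 3 was omitted (adjusted p = 0.0841 to 0.112), and the mean of its 2 probe sets gave -0.13 (adjusted p = 0.787). Pdx1, a homeodomain factor of duodenum and islet, stood at 9.38 ± 0.26 and 8.90 ± 1.03 (SD, n = 3, limma adjusted p = 0.491), with non-EGFP replicate 1 at 10.09, and passed as higher without that array (adjusted p = 0.0345). Gfi1, a zinc finger repressor of secretory progenitors, differed by -1.61 (adjusted p = 0.14). It passed with a replicate block (0.0344) or without CCK-EGFP replicate 3 (0.0486).

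Of 16 paralogues of the 10 factors measured, a list that leaves out the factors themselves, 0 were higher, 1 was lower and 15 did not pass, and 9 had both group means below the background level. The test was limma, by which 14.0% of all genes were higher. At an unadjusted p under 0.05, 0 of the 16 were higher. Differences were below 0 for 15 of them, and their median was -0.42, against -0.17 over all genes. With group means under the background level raised to it, the median of the paralogues was 0. With each array centred on its median, which moved every difference by -0.25, 4 paralogues were lower, Isl2, Lmx1b and Insm2 joining Pax8. Pax8, a paired box factor best known from thyroid and kidney, read 4.85, 6.19 and 6.87 against 8.85, 8.72 and 8.70, lower in the sorted cells by 2.79 (log2 difference -2.79, SE 0.49, adjusted p = 0.011), and the mean of its probe sets gave -1.60. Neurod2 had a difference of 1.24 (adjusted p = 0.149) and Nkx2-3, a factor of gut mesenchyme, of -0.38 (adjusted p = 0.249). Isl2, the nearest relative of Isl1, was below the background level on all 6 arrays, at 3.10 ± 0.09 and 3.71 ± 0.29 (SD, n = 3). Isl2, Lmx1b and Insm2 were singled out after their values were seen.

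Partners and inhibitors of the factors were all measured. Of the 23 listed, 8 were higher, 1 was lower and 14 did not pass, and the median log2 difference was 0.76. Over all genes 14.0% were higher and 10.2% lower. With the average of a gene's probe sets, 7 of the list were higher and 4 lower. The Groucho-type corepressor Tle2 read 9.66, 9.92 and 9.29 against 5.27, 5.96 and 6.11, a difference of 3.84 (SE 0.30, limma adjusted p = 0.000549). Ssbp2 and Ssbp3, which stabilise the complexes of LIM-homeodomain factors with Ldb1, were higher by 3.56 and 2.59 (adjusted p = 0.000823 and 0.00595), Ssbp2 by 2.40 as the mean of its probe sets. Hdac2, a histone deacetylase, was higher by 1.91 (adjusted p = 0.0103). Tle3 (-0.05, adjusted p = 0.857), a corepressor whose sign changed with a second quantile normalisation, and Kdm1a (0.59, adjusted p = 0.0809), a histone demethylase recruited by Insm1, did not pass. Kdm1a passed with the trend and robust settings of eBayes (adjusted p = 0.0363). The Id genes, inhibitors of E-proteins, moved in both directions. Id2 (1.11, adjusted p = 0.00882) and Id3 (1.41, adjusted p = 0.0192) were higher, the latter call ending on omission of replicate 1 or 2 of the CCK-EGFP cells or 1 of the non-EGFP cells (0.0544 to 0.0587), and Id1 differed by 0.86 (adjusted p = 0.111). Id4 was lower (-1.11, adjusted p = 0.0336), and its call ended when any array but CCK-EGFP replicate 3 was omitted (0.0543 to 0.0984). Rest, the repressor of neuronal genes, differed by -1.72 (adjusted p = 0.0905). It passed with a replicate block (0.0277), with arrays centred on their medians (0.0435) or without CCK-EGFP replicate 3 (0.0211). The Id genes and Rest were singled out after their values were seen. Rest was uneven in the sorted cells, at 6.85, 7.83 and 9.27, and CCK-EGFP replicate 3 (9.27) overlapped the non-EGFP values of 9.17, 9.64 and 10.29. Without CCK-EGFP replicate 2, 5 genes of the list were higher and 0 lower.

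Genes described as targets of the factors in gut or islet were higher in 12 of 13 measured cases and lower in 0. Over all genes 14.0% were higher. The median log2 difference of the list was 3.01. The list includes Cck, on which the cells were sorted, and Chga, Chgb and Pcsk1, also used to check the sort. Its count is therefore not independent of the sort. Without CCK-EGFP replicate 1 or 2, 11 were called, Iapp being lost (limma adjusted p = 0.0564 and 0.0579). The proglucagon gene Gcg was higher by 5.66 (12.36 ± 0.21 against 6.70 ± 1.98, SD, n = 3, limma adjusted p = 0.00813), Abcc8, the sulfonylurea receptor, by 5.40 and Pcsk1, a prohormone convertase, by 4.34. Gcg on the non-EGFP arrays was 4.70, 6.74 and 8.66, so that its non-EGFP arrays differed widely. Slc30a8, the zinc transporter of islet granules, was under the background level in both groups (3.44 ± 0.61 and 3.42 ± 0.42, adjusted p = 0.978).

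**Figure D3:**
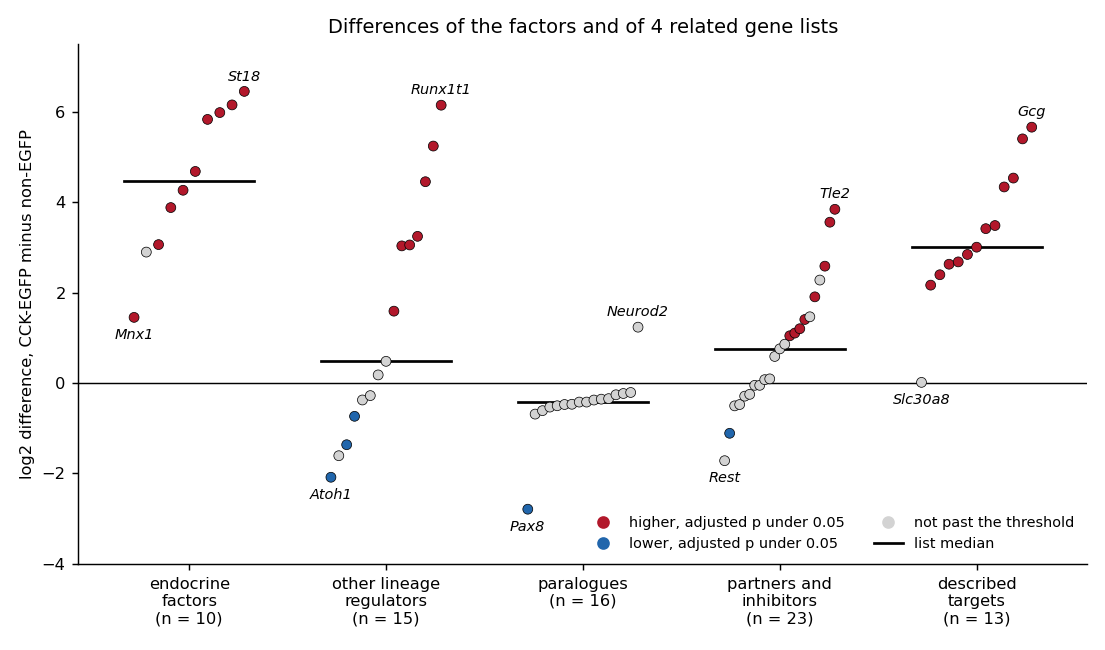
Log2 difference between CCK-EGFP and non-EGFP cells (vertical axis) for each gene of 5 lists (horizontal axis), with red for higher, blue for lower, grey for not past the threshold and a bar at the list median. The factors (median 4.47) and their described targets (3.01) stand high, the other lineage regulators run from Atoh1 (-2.08) to Runx1t1, and the paralogues lie around -0.42.

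Neurons and pancreatic islets share many of these factors, so their markers were read on the same arrays. Of 10 enteric neuron markers measured, 3 were higher (Ret by at least 6.12, Snap25 by 5.34 and Uchl1 by at least 3.59), 0 were lower and 7 did not pass. Over all genes 14.0% were higher and 10.2% lower. The list's mean level was 6.0 to 6.38 in CCK-EGFP cells against 4.18 to 5.03 in non-EGFP cells. The neuronal RNA-binding protein Elavl4 stood at 4.03 ± 0.35 against 4.71 ± 0.27, and the acetylcholine enzyme Chat at 4.15 ± 0.61 against 3.39 ± 0.20. Nos1 stood at 4.09 ± 0.17 against 4.84 ± 0.49 and Vip at 2.37 ± 0.03 against 3.08 ± 0.54. All of these had CCK-EGFP means below the background level. The other uncalled markers of the list had CCK-EGFP means above it, Tubb3 at 5.74 ± 0.31 against 5.03 ± 0.42, Phox2a at 5.11 ± 1.18 against 4.33 ± 0.29 and Prph at 5.39 ± 0.25 against 5.42 ± 0.60 (SD, n = 3). At an unadjusted limma p under 0.05, Tubb3 among the uncalled markers was higher, and Elavl4, Nos1 and Vip were lower. The 3 enteric glia markers measured had a mean level of 4.05 to 4.58 in CCK-EGFP cells against 4.47 to 4.49 in non-EGFP cells. Of these Gfap was called higher (adjusted p = 0.0149), by at least 0.09 against the background level (4.69 ± 0.37 against 3.45 ± 0.14, SD, n = 3), and its call ended without CCK-EGFP replicate 1 or 2 (0.0591 and 0.0655). Of 4 islet markers measured, 0 were called higher or lower by limma. At an unadjusted p under 0.05, 0 of them were higher and 2 lower. Insulin 2 (Ins2), 1 of the 2, stood at 5.07 ± 0.03 in CCK-EGFP cells against 5.82 ± 0.43 in non-EGFP cells. Slc2a2, the other, read 7.72, 9.56 and 10.86 against 10.89, 12.25 and 11.67. The mean level of the islet list ran from 5.16 to 6.30 against 6.14 to 6.41. It follows Slc2a2 more than the other genes, and Ins1 and Mafa were not measured.

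**Figure D4:**
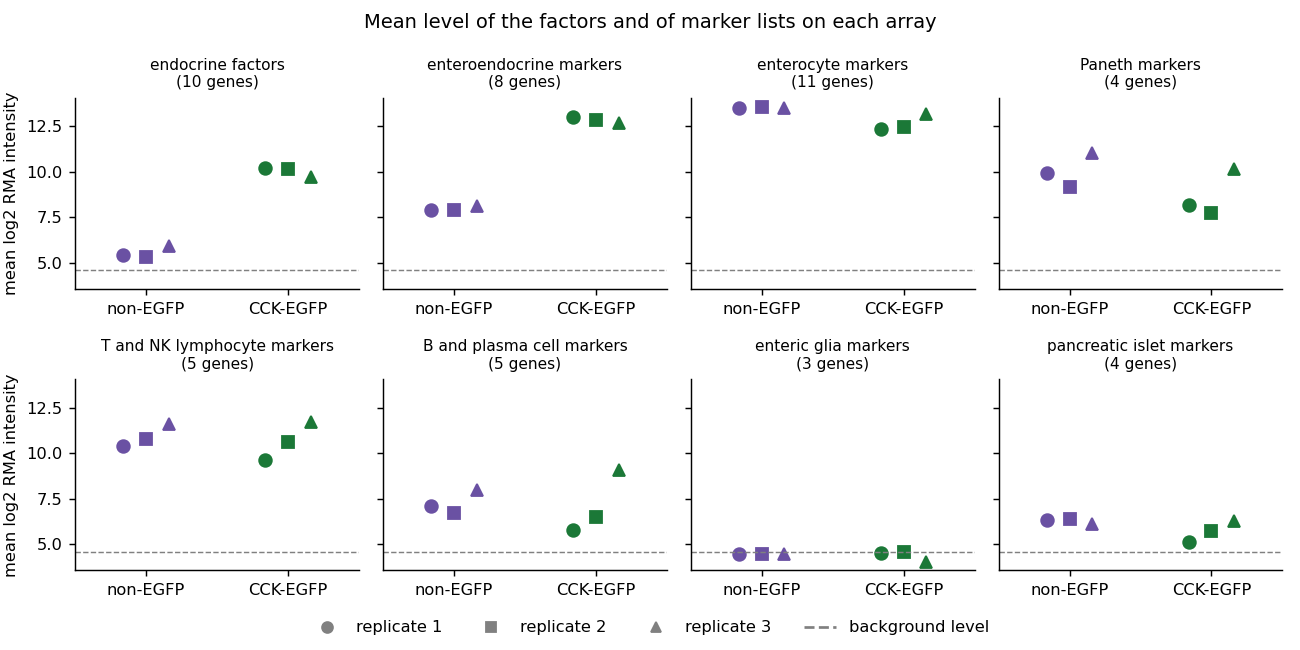
Mean log2 RMA intensity (vertical axis) of the 10 factors and of 7 marker lists on each array, by group (horizontal axis), with replicates 1, 2 and 3 as circles, squares and triangles and the background level of 4.60 as a dashed line. The factors and the enteroendocrine markers are higher on every CCK-EGFP array. CCK-EGFP replicate 3 has the highest enterocyte (13.19), Paneth (10.17) and B and plasma cell (9.06) means of its group. Non-EGFP replicate 3 has the highest Paneth (11.04) and B and plasma cell (7.99) means of its own group.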

How the data were processed

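The authors deposited 1 table of 45101 probe sets, made with RMA per the submitters' processing notes. The version and settings of RMA are unstated in the sources used here. Values as deposited ran from 1.47 to 14.8 and were taken as log2 on that ground. Per the labels' protocols, picogram amounts of RNA were amplified before labelling, which can add spread at low levels. RMA makes array distributions alike, so broad shifts can shrink, and it gives no detection call.

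Gene symbols came from the annotation of the platform, which may be outdated (34945 probe sets with 1 symbol, 932 with several, 9160 not listed, 64 controls). The background level came from 71 receptor genes. Where 1 group mean was below it, the fold was taken against it as a lower bound. The comparison used limma 3.58.1 under R 4.3.3 (lmFit, eBayes, two-sided, adjusted over 18193 genes, or 45037 probe sets), tested on simulated data. The 3 arrays per group limit precision.

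The factors, lists and tests were chosen with earlier results of these data known. Named genes are the 10 factors, Neurog3, the 5 nearest profiles and, from each related list, up to 4 called genes by size and 2 uncalled by mean level. Deviations of same-numbered arrays from their group means correlated at 0.27, 0.159 and 0.219 across genes. Other numbers gave -0.245 to -0.0109. Centring on group means makes these negative on balance where same-numbered values are positive, so they are not separate support. From the same-numbered values, the numbers were taken as pairs in an alternative with a replicate block. Other alternatives were 2 filters on dim genes, array weights, eBayes with both trend and robust options, median centring, a second quantile normalisation, the average of a gene's probe sets, each probe set alone, and omission of each array. Scanner files were not used here.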

Additional observations from a re-analysis of the deposited data

How the results depend on the processing

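All 10 factors kept a higher mean in CCK-EGFP cells for their chosen probe set under every alternative in which they were fitted. The number called was 8 with either filter on dim genes, which removed Mnx1, 9 with the replicate block, median centring or a second quantile normalisation, and 10, with Pax4 added, under trend and robust settings, array weights or the average of a gene's probe sets. It was 7 to 9 when 1 array was left out. Neurod1, Isl1, Pax6, Nkx2-2, Insm1, St18 and Myt1 were called under each of these. With each probe set alone, those of Pax6 at 1.81, 0.94 and -0.25 and that of Myt1 at 1.20 were not called. The replicate block changed no call among the 10 factors. Averaging every probe set of a gene, the median difference of the factors was 3.96 instead of 4.47. Pax6 fell to 2.33, Myt1 to 2.94 and St18 to 5.50, while Neurod1 rose to 5.07, Isl1 to 6.36 and Insm1 to 4.86. Why probe sets of a gene differed was not tested. Over all genes, 2134 were called without CCK-EGFP replicate 1, 1870 without CCK-EGFP replicate 2 and 2872 without non-EGFP replicate 2, against 4391 with all arrays, 3874 with the replicate block and a range of 1870 to 4448 over the 6 omissions. With arrays centred on their medians the split was 2101 higher and 3605 lower, against 2540 and 1851, and 4 paralogues were called instead of 1. The partners and inhibitors gave 5 to 11 calls when 1 array was left out, against 9.

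The lowest Pax6 probe set gave -0.25 alone. Tle3 gave 0.0094 with the second quantile normalisation, -0.1513 to 0.0407 when 1 array was left out, and was called lower (-0.84) as the average of its probe sets. Slc30a8 gave -0.0845 with array weights, -0.24 with median centring, and -0.34 to 0.2555 when 1 array was left out. The causes were not tested. Levels below the background level, as for Mnx1, Neurog3 and most paralogues, limit what a difference there can show.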
